A study of Mus musculus with 8 samples.

Results

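The cytochrome P450 enzymes of the Cyp2b and Cyp3a subfamilies and the nuclear receptors that control many of them, CAR (constitutive androstane receptor, encoded by Nr1i3) and PXR (pregnane X receptor, encoded by Nr1i2), were followed in livers with and without the microRNA miR-223. The members were the array probes that carried 1 of 10 listed gene symbols in the authors' deposited table: Cyp2b9, Cyp2b10, Cyp2b13, Cyp3a11, Cyp3a13, Cyp3a16, Cyp3a25, Cyp3a44, Nr1i2 and Nr1i3. This gave 11 probes of 8 genes, out of 40554 non-control probes and 21180 gene symbols in that table. Cyp3a11 and Cyp3a16 were not found there under their symbols. A further 4 array probes were named through their RefSeq accession, 1 each of Cyp3a11 and Cyp3a16 and a second probe each of Cyp2b13 and Cyp3a25. They are given beside the 11 and are marked as named by accession, which makes 15 probes of all 10 genes. The listed genes were chosen by their log2 differences between miR-223KO and WT on these same arrays. Those differences are therefore a description here, with no test of their own.

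Enzymes of these subfamilies oxidise drugs, steroids and other lipophilic compounds in the endoplasmic reticulum of hepatocytes. CAR and PXR bind DNA together with RXR, at pairs of a short core sequence spaced in repeats. Cyp2b10 is the classic mouse target of CAR, and Cyp3a11 that of PXR, and each receptor can act on the other's targets. PXR is opened by ligands, whereas CAR is held in the cytoplasm by a chaperone complex and enters the nucleus when it is released. Several of the enzymes, among them Cyp2b9, Cyp2b13, Cyp3a16, Cyp3a41a and Cyp3a44, are known for higher levels in female than in male mouse liver.

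RNA from whole liver of male C57BL/6J mice was compared between samples without a knockout (WT, 4 samples) and samples with a knockout of miR-223 (miR-223KO, 4 samples). Every sample came from mice on a high-fat diet for 3 months, so no group on normal chow stands beside them. The labels name neither the knockout allele nor a separate mouse for each sample, so each p-value rests on a spread between samples that may be technical. In whole liver, fewer cells of a type and less RNA per cell cannot be told apart.

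Each liver RNA was labelled with Cy5 and hybridised to its own Agilent array beside a Cy3-labelled RNA pool from mixed mouse tissues. The value of a probe is the log2 ratio of liver over this pool after loess, which centres each array's ratios along signal level. A value of 0 thus means the typical ratio of that array at that signal level, and 1 means double that ratio. Equal levels in liver and pool cannot be read from it. The arrays lay on 2 slides, with WT replicates 1 and 2 and miR-223KO replicates 1 and 2 on slide 1 and the others on slide 2. The liver signal cleared background at 49.5% to 69.8% of the spots. In WT the shares were 66.1% and 69.8% on slide 1 and 53.2% and 49.5% on slide 2. In miR-223KO they were 64.1% and 53.0% on slide 1 and 63.5% and 65.8% on slide 2. The part of this in the differences between slides given below was not tested. Hepatocyte markers were present on all arrays, with a mean log2 ratio over 11 genes of 0.36 to 0.78 in WT and 0.19 to 0.58 in miR-223KO. The tissue is labelled as male. The Y-linked genes Ddx3y and Eif2s3y cleared background on 8 of 8 arrays. Kdm5d, also Y-linked, cleared it on 7 arrays, and Uty on 7, 5 and 0 arrays at its probes. Xist, expressed in females, cleared it on 2 arrays at 1 of its probes and on 0 arrays at its other 3 probes. No probe was named Mir223, so the loss of the targeted gene was not checked here. Over all 25693 probes tested with limma and Benjamini-Hochberg adjustment, 1 (0.00389%) passed an adjusted p of 0.05. It was a probe of Ctse, the aspartic protease cathepsin E, with a difference of 2.70 (SE 0.23, adjusted p = 0.000117).

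The 2 receptors are described first. The probe of Nr1i2, the PXR gene, had log2 ratios of 0.63, 0.70, 0.17 and -0.0006 in WT replicates 1 to 4 and of 0.48, 0.80, 0.49 and 0.18 in miR-223KO replicates 1 to 4. The groups overlapped in part, with 1 miR-223KO array above all WT arrays and 2 WT arrays below all miR-223KO arrays, and within each group the lowest array was the one on slide 2 numbered 4. The means were 0.37 ± 0.34 (SD, n = 4) in WT and 0.49 ± 0.25 (SD, n = 4) in miR-223KO, a difference of 0.11 (SE 0.21), smaller than the spread within either group. It was -0.02 on slide 1 and 0.25 on slide 2.

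The probe of Nr1i3, the CAR gene, had log2 ratios of -0.05, -0.29, -0.60 and 0.08 in WT and of -0.17, -0.10, -0.18 and 0.37 in miR-223KO. Of the miR-223KO arrays, 3 lay within the WT range and replicate 4 lay above it. The means were -0.21 ± 0.30 (SD, n = 4) and -0.02 ± 0.26 (SD, n = 4), a difference of 0.20 (SE 0.20). It was 0.04 on slide 1 and 0.36 on slide 2. The difference of each receptor thus lay within 1 SE of 0.

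The enzyme genes lie in 2 clusters, with Cyp2b10, Cyp2b13 and Cyp2b9 next to each other on chromosome 7 and Cyp3a16, Cyp3a44, Cyp3a11 and Cyp3a25 in this order on chromosome 5. Cyp3a13 lies apart from them on chromosome 5. The 250 bases before the start of the 6 enzymes on which the results below turn are shown so that near-copies among them can be seen, and because CAR and PXR bind pairs of the core sequences AGGTCA and AGTTCA. The sequences are RefSeq's for build GRCm38.p6, read 5′ to 3′ on the gene's strand. Capitals mark a core sequence on either strand or a TATAAA.
Cyp2b10 (chr7:25897408-25897657, plus strand): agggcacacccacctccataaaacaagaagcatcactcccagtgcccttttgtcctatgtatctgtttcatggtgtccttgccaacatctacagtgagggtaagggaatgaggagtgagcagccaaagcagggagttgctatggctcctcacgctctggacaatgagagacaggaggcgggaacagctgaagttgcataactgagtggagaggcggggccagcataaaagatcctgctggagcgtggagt
Cyp2b13 (chr7:26061245-26061494, plus strand): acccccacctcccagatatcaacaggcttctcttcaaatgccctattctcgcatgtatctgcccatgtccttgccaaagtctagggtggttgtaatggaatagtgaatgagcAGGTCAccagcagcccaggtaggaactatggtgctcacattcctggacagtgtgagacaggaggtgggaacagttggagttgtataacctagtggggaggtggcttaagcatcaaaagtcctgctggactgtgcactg
Cyp2b9 (chr7:26173159-26173408, plus strand): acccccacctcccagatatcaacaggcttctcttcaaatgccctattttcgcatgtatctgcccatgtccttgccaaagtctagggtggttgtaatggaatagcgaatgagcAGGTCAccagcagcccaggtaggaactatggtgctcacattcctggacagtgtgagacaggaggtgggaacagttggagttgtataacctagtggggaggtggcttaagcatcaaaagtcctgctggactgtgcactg
Cyp3a11 (chr5:145879855-145880104, minus strand): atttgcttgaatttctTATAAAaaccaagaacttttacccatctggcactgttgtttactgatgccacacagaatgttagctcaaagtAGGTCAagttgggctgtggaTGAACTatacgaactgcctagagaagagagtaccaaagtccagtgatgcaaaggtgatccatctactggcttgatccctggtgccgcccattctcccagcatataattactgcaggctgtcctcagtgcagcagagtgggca
Cyp3a16 (chr5:145469724-145469973, minus strand): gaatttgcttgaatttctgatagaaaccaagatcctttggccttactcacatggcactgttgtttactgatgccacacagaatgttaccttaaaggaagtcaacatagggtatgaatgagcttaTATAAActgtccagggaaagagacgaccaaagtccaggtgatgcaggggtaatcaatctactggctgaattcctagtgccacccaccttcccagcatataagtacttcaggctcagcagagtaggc
Cyp3a44 (chr5:145805875-145806124, minus strand): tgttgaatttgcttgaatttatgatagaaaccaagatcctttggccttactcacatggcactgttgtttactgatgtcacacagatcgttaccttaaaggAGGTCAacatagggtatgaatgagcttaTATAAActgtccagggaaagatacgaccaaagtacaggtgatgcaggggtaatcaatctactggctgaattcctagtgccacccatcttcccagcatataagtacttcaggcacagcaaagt

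The windows of Cyp2b9 and Cyp2b13 were identical at 248 of 250 positions (99.2%), and those of Cyp3a16 and Cyp3a44 at 236 of 254 aligned columns (92.9%). Cyp2b10 matched Cyp2b9 over 71.0% of aligned columns. An AGGTCA began 138 bases before the start in both Cyp2b9 and Cyp2b13, 162 bases before it in Cyp3a11 and 150 bases before it in Cyp3a44. Cyp3a11 also held an AGTTCA on the other strand. Of the members not printed, Cyp3a25 held AGGTCA on each strand. The Cyp2b10 window held neither core sequence. AGGTCA on either strand was found in 5 member windows and in 14.0% of all 32851 windows of the same length, and AGTTCA in 11.8% of all windows. TATAAA was found in Cyp3a11, Cyp3a16 and Cyp3a44 and in 12.4% of all windows. No member window held a repeat of these core sequences as AGGTCANAGGTCA, as a direct repeat with 3 or 4 bases between (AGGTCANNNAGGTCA, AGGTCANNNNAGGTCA and the forms with AGTTCA in either place) or as an everted repeat with 6 bases between (TGACCTNNNNNNAGGTCA and its forms with AGTTCA), searched on both strands. Each of these exact repeats was found in at most 0.0335% of all windows, so their absence could not set the members apart. These matches describe letters in a short window and say nothing of binding.

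Cyp2b10, the CAR target, had log2 ratios of -0.64, -0.39, 0.20 and -0.08 in WT and of 0.07, 0.44, 0.06 and 0.82 in miR-223KO at its brighter probe (A_51_P182362). The WT arrays on slide 1 were lower than all others, and WT replicate 3 lay above 2 of the miR-223KO arrays. The means were -0.23 ± 0.37 (SD, n = 4) and 0.35 ± 0.36 (SD, n = 4), and their difference was 0.58 (SE 0.23), or 0.78 on slide 1 and 0.38 on slide 2. In the separate channels, Cy5 differed by 0.29 and the Cy3 of the common pool by -0.29, so equal shares of the ratio's difference stood in the liver signal and in the reference signal. The dimmer Cyp2b10 probe cleared background on 1 WT and 3 miR-223KO arrays and had a difference of 0.33 (SE 0.23).

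Cyp2b13 had the largest difference of the 15 probes. Its log2 ratios were -1.46, -1.29, -0.23 and -1.08 in WT and 0.72, -0.49, -0.22 and 0.47 in miR-223KO. Of the WT arrays, 3 were below every miR-223KO array, and WT replicate 3 lay about level with miR-223KO replicate 3. The means were -1.02 ± 0.54 (SD, n = 4) and 0.12 ± 0.57 (SD, n = 4), a difference of 1.14 (SE 0.30) and a 2.20-fold ratio. Leaving out 1 array at a time gave differences of 0.94 to 1.40. No spot of this probe had an outlier flag, and the difference was 1.29 in Cy5 against 0.15 in Cy3. The second Cyp2b13 probe, named by accession, had a difference of 0.82 (SE 0.33) with outlier flags on 4 WT and 3 miR-223KO arrays.

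Cyp2b9 had the lowest single value of any member at its brighter probe, with log2 ratios of -1.54, -0.64, 0.35 and 0.15 in WT and of 0.15, 0.46, -0.37 and 0.43 in miR-223KO. WT replicate 1 stood far below the other arrays, and on slide 2 both WT arrays lay above miR-223KO replicate 3. The mean difference was 0.59 (SE 0.34), made of 1.39 on slide 1 and -0.22 on slide 2. The second Cyp2b9 probe repeated this pattern, with 0.52 (SE 0.33) in all, 1.17 on slide 1 and -0.13 on slide 2. Leaving out WT replicate 1 took the difference of the brighter probe to 0.21. On slide 2 the Cyp2b13 probes, whose gene has almost the same promoter window, had differences of 0.79 and 0.40, and the gap between the genes was not tested.

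**Figure D1:**
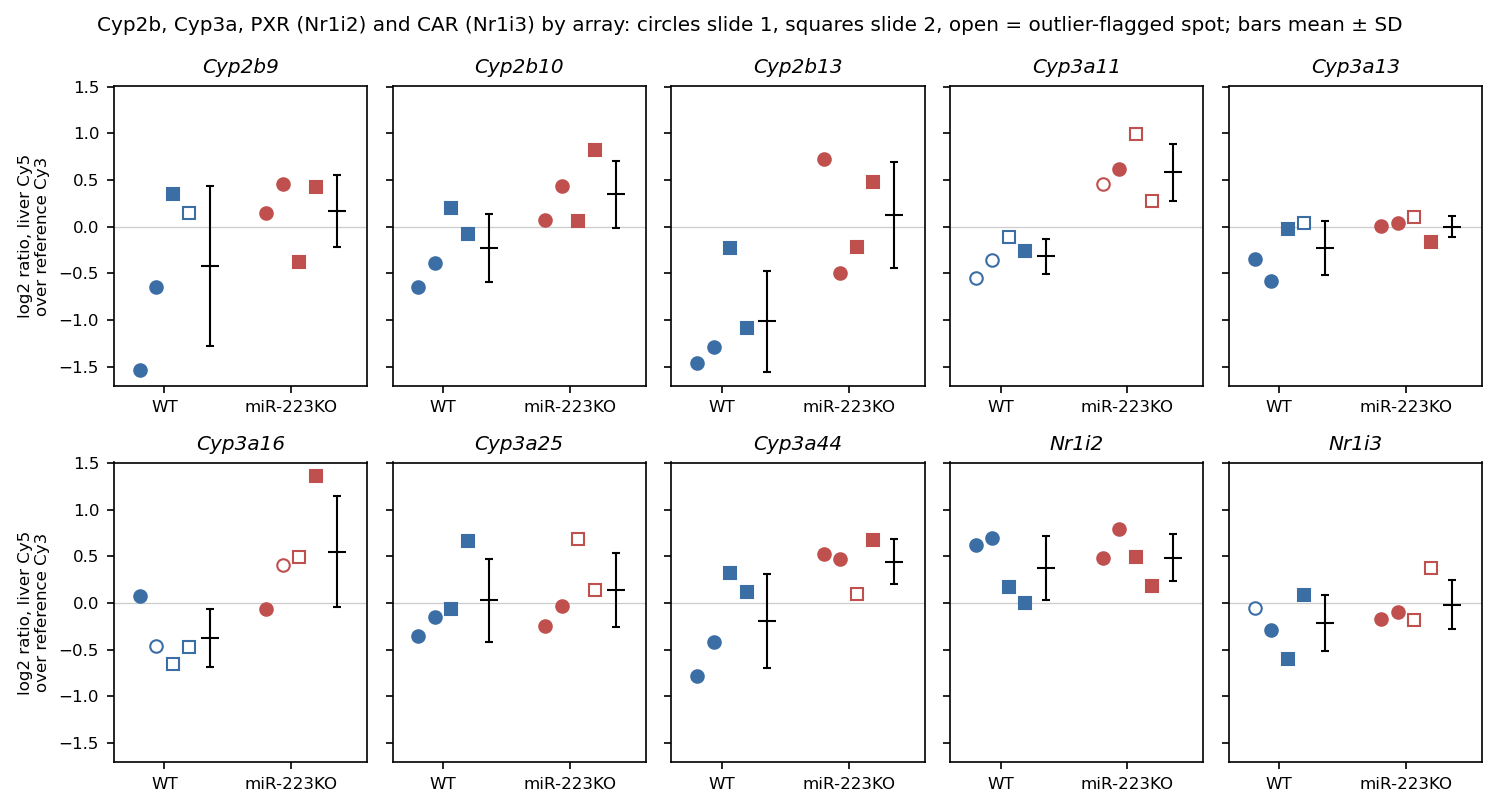
Log2 ratio of liver (Cy5) over the reference pool (Cy3) for the brightest probe in the deposited table of each member, or the probe named by accession for Cyp3a11 and Cyp3a16, in 4 WT and 4 miR-223KO arrays. Circles lie on slide 1 and squares on slide 2, open symbols had an outlier flag, and bars give the mean ± SD. The groups are apart only for Cyp3a11, from -0.55 to -0.11 in WT and from 0.28 to 0.99 in miR-223KO. Of all probes tested, 1.55% lay wholly above WT in miR-223KO.

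Among the Cyp3a enzymes, Cyp3a11 comes first, as the textbook PXR target. Its probe, named by accession, had log2 ratios of -0.55, -0.36, -0.11 and -0.26 in WT and of 0.45, 0.61, 0.99 and 0.28 in miR-223KO. Every miR-223KO array lay above every WT array, as at 1.55% of all probes tested, and the probe did not pass (limma adjusted p = 0.452). The means were -0.32 ± 0.19 (SD, n = 4) and 0.58 ± 0.31 (SD, n = 4), a difference of 0.90 (SE 0.20) and a 1.87-fold ratio. The difference was alike on both slides (0.99 and 0.82) and stood in Cy5 (0.85, against -0.06 in Cy3). This very bright probe had outlier flags on 3 WT and 3 miR-223KO arrays. The unflagged spots, WT replicate 4 at -0.26 and miR-223KO replicate 2 at 0.61, stood on the same sides as the flagged ones.

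Cyp3a44 had log2 ratios of -0.78, -0.42, 0.33 and 0.12 in WT and of 0.53, 0.47, 0.10 and 0.68 in miR-223KO at its brighter probe. As for Cyp2b9, the WT arrays on slide 1 were the low ones. The difference was 0.63 (SE 0.24), with 1.10 on slide 1 and 0.16 on slide 2. The dimmer Cyp3a44 probe cleared background on 0 WT and 2 miR-223KO arrays and was not tested. On average its liver signal was 1.21-fold higher in miR-223KO, a ratio of signals that mostly did not clear background. In log2 Cy5, miR-223KO stood at 6.57 and 6.49 on slide 1, within the WT range of 6.42 to 6.81. On slide 2 miR-223KO stood at 7.40 and 7.21. The difference in the log2 ratio of this probe was 0.31 here but 1.62 in the authors' deposited table.

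Cyp3a16 had the opposite division between slides. Its probe, named by accession, had log2 ratios of 0.08, -0.46, -0.65 and -0.47 in WT and of -0.06, 0.41, 0.49 and 1.36 in miR-223KO. WT replicate 1 lay above miR-223KO replicate 1, and the other arrays of the groups did not overlap. The difference was 0.93 (SE 0.26), with 0.37 on slide 1 and 1.49 on slide 2, and 3 WT and 2 miR-223KO arrays had an outlier flag. Both WT spots on slide 2 were flagged, so the division between slides rests on flagged spots. With flagged spots left out the difference was 0.57, from WT replicate 1 (0.08) and miR-223KO replicates 1 (-0.06) and 4 (1.36). The promoter windows of Cyp3a16 and Cyp3a44 are close in sequence, but their differences were largest on different slides. The difference between the slides was not tested.

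The remaining Cyp3a members had small differences in ratio. Cyp3a13 had values of -0.58 to 0.04 in WT and of -0.16 to 0.10 in miR-223KO, with a difference of 0.23 (SE 0.19) that was 0.49 on slide 1 and -0.04 on slide 2. Cyp3a25 had values of -0.35 to 0.67 in WT and of -0.24 to 0.69 in miR-223KO, with a difference of 0.11 (SE 0.25), which was -0.17 with its flagged spots left out. At this Cyp3a25 probe Cy5 differed by 0.52 and the Cy3 of the common pool by 0.41, and with Cy5 alone the difference was 0.58. The second Cyp3a25 probe, named by accession, also had a difference of 0.11 (SE 0.18). For both genes the difference in ratio was smaller than the spread within WT.

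All 11 member probes had a difference above 0, against 49.4% of the probes tested, and the other 4 did too. Of the 10 member probes tested, 0 passed the adjusted p of 0.05 in limma, against 0.00389% of all probes. At an unadjusted p under 0.05, 3 were higher (1 probe each of Cyp2b10, Cyp2b13 and Cyp3a44) against 2.36% of all probes, and 0 were lower against 2.22%. The difference was above 0 within both slides for 7 of the 11 member probes and for 10 of the 15, against 22.1% of all probes. Of the 10 tested member probes, 0 lay wholly above WT in miR-223KO and 0 wholly below, against 1.55% and 1.22% of all probes. Because the genes were listed for this difference, nothing is read from these counts. With each array's ratios centred on their median in place of loess, 64.2% of all probes had a difference above 0 and the median over all probes shifted by 0.08. On that scale the median over the 8 genes of the deposited table was 0.61, against 0.40 after loess.

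**Figure D2:**
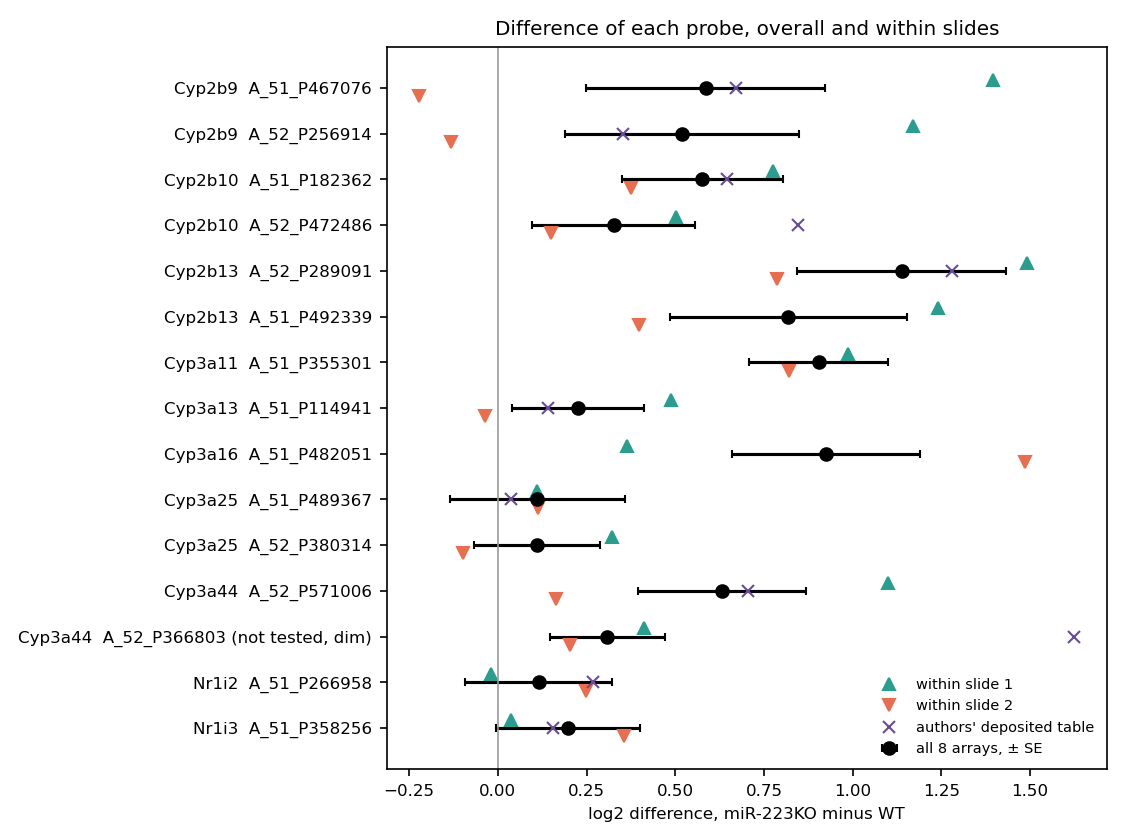
Log2 difference, miR-223KO minus WT, of each of the 15 probes over all 8 arrays (black, ± SE), within each slide (triangles) and in the authors' deposited table (crosses). Both Cyp2b9 probes and the brighter Cyp3a44 probe lie far right on slide 1 and near 0 on slide 2. The Cyp2b13 probes also lie far right on slide 1 (1.49 and 1.24), with 0.79 and 0.40 on slide 2. Cyp3a16 lies far right on slide 2, and Cyp3a11 lies near 0.90 on both.

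The subfamily means over arrays divided by slide for Cyp2b more than for Cyp3a. Averaged over the 3 Cyp2b genes, the log2 ratio was -1.21 and -0.78 in the WT arrays of slide 1 and 0.11 and -0.34 in those of slide 2. In miR-223KO it was 0.32 and 0.14 on slide 1 and -0.18 and 0.57 on slide 2. Both WT arrays of slide 1 had lower Cyp2b means than every other array, and the difference was 1.22 on slide 1 and 0.31 on slide 2. Averaged over the 5 Cyp3a genes, the log2 ratio was -0.39 in both WT arrays of slide 1 and -0.10 and 0.02 in those of slide 2. In miR-223KO it was 0.14 and 0.30 on slide 1 and 0.48 and 0.46 on slide 2, which gave differences of 0.61 and 0.51. For 11 of the 15 probes the difference was larger on slide 1.

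Whether receptor level and enzyme level moved together from array to array was tested within the groups, which does not use the difference between them. Each value was taken as its deviation from its group's mean, and the 2 receptors were set against the 8 enzymes over 8 arrays. Of these 16 pairs, 0 passed an adjusted p of 0.05 and 0 had an unadjusted p under 0.05, by Pearson's r or by Spearman's rho. The smallest adjusted p was 0.480 in an exact permutation test within groups (two-sided, Benjamini-Hochberg over the pairs).

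The highest coefficient was that of Nr1i3 with Cyp3a16 (r = 0.73, exact permutation p = 0.066, adjusted p = 0.480; rho = 0.62, exact permutation p = 0.149, adjusted p = 0.509), and it was 0.70 without the 2 arrays farthest from the median of Nr1i3. The lowest was that of Nr1i2 with Cyp3a44 (r = -0.71, exact permutation p = 0.134, adjusted p = 0.480; rho = -0.74, exact permutation p = 0.122, adjusted p = 0.509), with -0.66 without 2 arrays. The textbook pair of CAR with Cyp2b10 gave r = 0.14 (exact permutation p = 0.752, adjusted p = 0.861; rho = 0.24, exact permutation p = 0.620, adjusted p = 0.979), which turned to -0.77 without the 2 arrays farthest out, so its sign rests on them. The pair of PXR with Cyp3a11 gave r = -0.07 (exact permutation p = 0.861, adjusted p = 0.861; rho = -0.05, exact permutation p = 0.938, adjusted p = 0.986), and 0.01 without 2 arrays. With 8 arrays these tests do not show that receptor and enzyme levels are unrelated.

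The coefficients above mix the slides, on which the WT values of Nr1i2 and of the Cyp2b genes differed. When the mean of each group on each slide was removed instead, an alternative chosen after the data were seen, PXR with Cyp3a11 went from -0.07 to 0.84 (exact permutation p = 0.125, adjusted p = 1.0). With 16 permutations 0.125 is the smallest p this design allows, so no pair could pass. PXR with Cyp3a44 went from -0.71 to -0.39 (exact permutation p = 0.875), and 5 of the 8 coefficients of Nr1i2 were below 0, against 8 of 8 before. CAR with Cyp3a16 stayed at 0.73 (exact permutation p = 0.125), and CAR with Cyp2b10 stood at 0.23 (exact permutation p = 0.875). The signs for Nr1i2 in particular therefore depend on how the slides are treated.

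**Figure D3:**
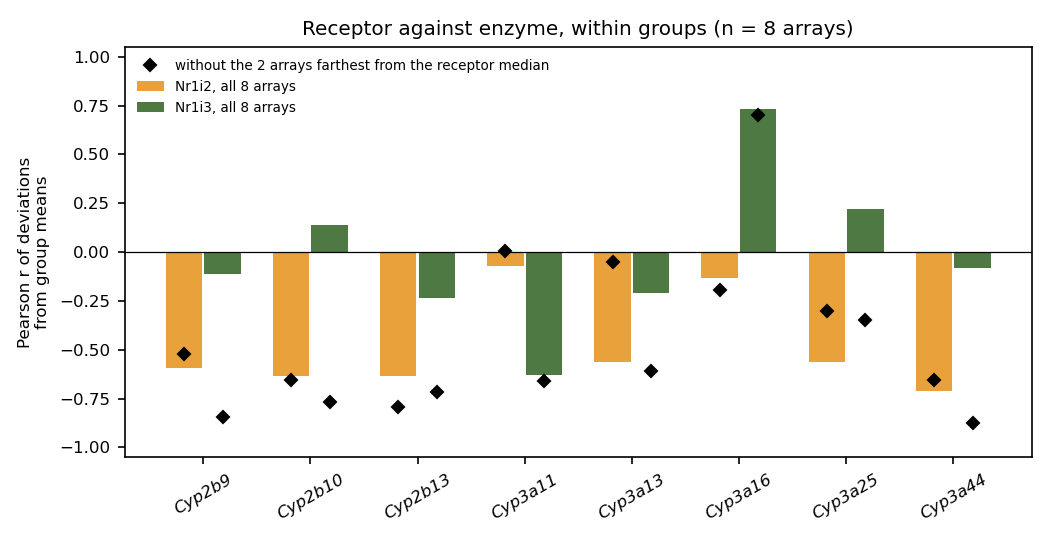
Pearson's r between the deviations of each receptor and each enzyme from their group means, over 8 arrays (bars) and without the 2 arrays farthest from the receptor's median (diamonds). Bars run from -0.71 to 0.73, those of Nr1i2 all lie below 0 with the slides mixed (5 of 8 do with slide means removed), and 0 of the 16 pairs passed.

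Among the members, the patterns over the 8 arrays most alike were those of Cyp2b9 and Cyp3a44 (likeness 0.94), of Cyp2b10 and Cyp3a44 (0.92) and of Cyp2b10 and Cyp2b9 (0.86), as Pearson coefficients over all 8 arrays. Likeness here describes 8 arrays that share the difference between groups and the slides, and carries no test. Of 15525 genes ranked by the same measure, Dapk3, a protein kinase (0.97), Acer3, an alkaline ceramidase (0.95), Ifi44, an interferon-induced gene (0.94), Plscr4, a phospholipid scramblase (0.93), and G3bp1, a stress granule protein (0.93), were most like Cyp2b10. Those most like Cyp3a11 were Morc3 (0.96), the ubiquitin ligase gene Smurf2 (0.96), Ctse (0.96), Sh3bp1 (0.96) and Lgals3bp (0.95). The 11 probes of the deposited table, the only ones with a sequence there, shared runs of at most 8 bases with each other. The 4 probes named by accession were not compared, and cross-hybridisation with transcripts of close paralogs was not checked.

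The genes around the members were taken from lists of other subfamily members, partners of the receptors, further CAR and PXR targets and parts of the P450 system. In limma, 0 genes of these lists passed the adjusted p of 0.05. Of the other Cyp2b and Cyp3a genes 3 were tested, with 1 higher and 2 lower. Cyp3a41a, a further female-biased Cyp3a enzyme, had log2 ratios of -0.64, -0.10, 0.02 and -0.71 in WT and of -0.13, -0.18, 1.33 and 0.83 in miR-223KO. Its difference of 0.82 (SE 0.31) was 0.22 on slide 1 and 1.43 on slide 2, the same division as for Cyp3a16. Cyp2b23 stood at -0.28 (SE 0.21) and Cyp2b19 at -0.13 (SE 0.23).

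Receptor partners numbered 22, with 11 higher and 11 lower and a median difference of -0.01, against 49.4% of all probes above 0. Rxra, the DNA-binding partner of both receptors, stood at -0.03 (SE 0.19), and Hnf4a, a hepatocyte transcription factor needed for many P450 genes, at -0.02 (SE 0.18). At an unadjusted p under 0.05, 1 gene was higher and 1 lower, against 2.36% and 2.22% of all probes. Foxo1, a forkhead factor that can coactivate both receptors, stood at 0.62 (SE 0.18, limma adjusted p = 0.985) at its brighter probe and at -0.09 at the other. Nr0b2, the corepressor SHP, stood at -0.63 (SE 0.25, limma adjusted p = 0.985). Hsp90aa1, a chaperone of the complex that holds CAR, stood at 0.50 (SE 0.25). The coactivator Ncoa2 stood at 0.23 (SE 0.20) at its brightest probe and at 0.03 and -0.03 at its others. At that brightest probe Cy5 differed by -0.13 and Cy3 by -0.36, so the liver signal itself was not higher.

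Of the further CAR and PXR targets 29 were tested, with 18 higher and 11 lower and a median of 0.14, which was 0.32 on slide 1 and -0.11 on slide 2. At an unadjusted p under 0.05, 3 were higher and 2 lower, against 2.36% and 2.22% of all probes. The list was chosen with earlier results of these data known, so nothing is read from these counts. The largest difference among the 29 went down. Cyp2c54, a Cyp2c enzyme, stood at -1.50 (SE 0.31, limma adjusted p = 0.402), with -1.97 and -1.02 within the slides. Its miR-223KO arrays lay wholly below WT, as at 1.22% of all probes tested. Cyp2c37, of the same subfamily, stood at -0.86 (SE 0.24, limma adjusted p = 0.964), and its second probe at -0.87. On the other side were the conjugating enzymes Ugt1a9 at 0.54 (SE 0.18) and Gstm3 at 0.73 (SE 0.27), and Gsta2 at 0.76 (SE 0.31), the last chosen after its value was seen.

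Of 11 genes of electron transfer and haem supply, 5 were higher and 6 lower, with a median of -0.11. Por, the reductase that feeds electrons to all microsomal P450 enzymes and is itself a CAR and PXR target, stood at -0.38 (SE 0.24). Alas1, the rate-limiting enzyme of haem synthesis, stood at 0.47 (SE 0.32), with 1.34 on slide 1 and -0.41 on slide 2, and at 1.01 (SE 0.24) at a second probe. Alad, the next enzyme of that pathway, stood at -0.41 (SE 0.23). The cytochrome b5 reductase Cyb5r3 stood at -0.39 (SE 0.28) at its brighter probe and at 0.43 (SE 0.22) at the other, so its sign depends on the probe.

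Several members are sex-biased enzymes, so genes of that kind outside the members were listed too. Of 7 female-biased genes tested, 5 were higher and 2 lower (median 0.17), with Cyp3a41a at 0.82 and Cyp2a4 at 0.58 (SE 0.36). Cyp2c40 stood at 0.17 (SE 0.24) at its brighter probe and at -0.17 at the other, and Cyp17a1 at -0.15 (SE 0.21). Of 12 male-biased genes, 2 were higher and 10 lower (median -0.35), and 4 of the lower ones had an unadjusted p under 0.05, against 2.22% of all probes. Both lists were chosen with earlier results of these data known, so nothing is read from these counts. Slco1a1, a male-biased organic anion transporter, had log2 ratios of 0.57, 0.26, -0.98 and 0.01 in WT and of -1.28, -1.84, -1.62 and -1.66 in miR-223KO. Every miR-223KO array lay below every WT array, as at 1.22% of all probes tested. WT replicate 3, the array with the highest Cyp2b mean in WT, had the lowest Slco1a1 value in WT. In miR-223KO, Slco1a1 stood at -1.66 in replicate 4, with the highest Cyp2b mean, and at -1.62 in replicate 3, with the lowest. Whether Slco1a1 and Cyp2b levels vary together was not tested. The Slco1a1 difference was -1.57 (SE 0.27, limma adjusted p = 0.203), and -1.77 at a second probe. The other 3 were Elovl3, a fatty acid elongase, with -0.73 (SE 0.24), Cyp4a12b with -0.79 (SE 0.27) and Susd4 with -0.94 (SE 0.27), none past the adjusted test.

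**Figure D4:**
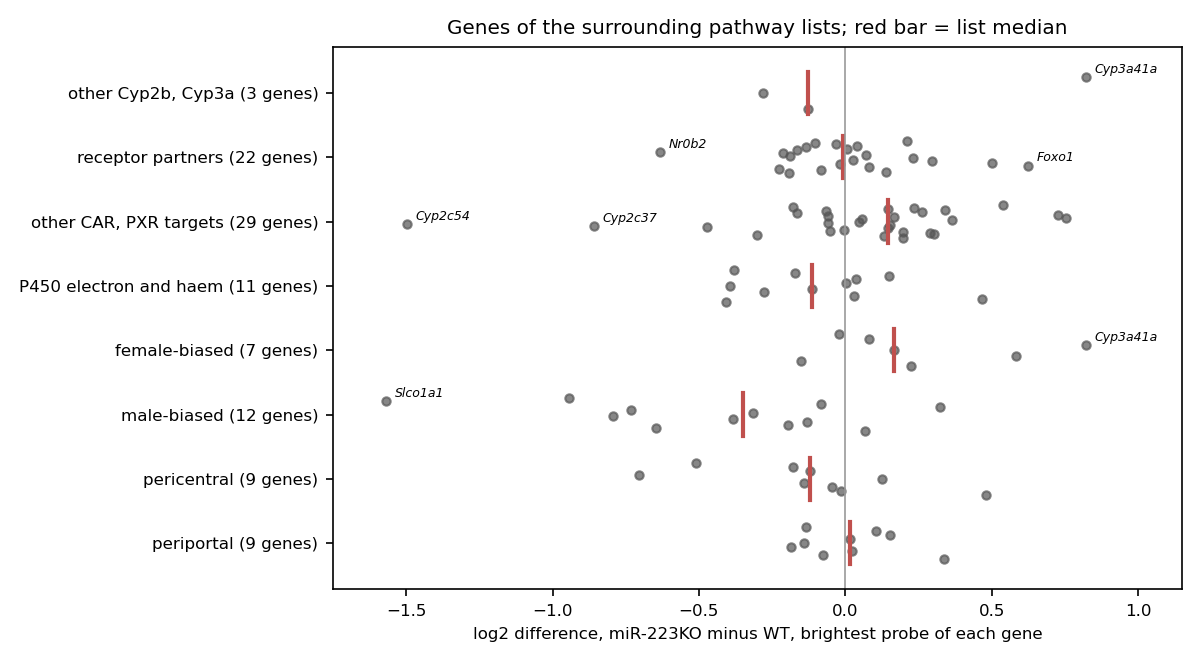
Log2 difference, miR-223KO minus WT, at the brightest probe of each gene tested in 8 lists around the members (points), with each list's median (red bar). The receptor partners centre on -0.01, the further CAR and PXR targets reach from -1.50 for Cyp2c54 to 0.76, and the male-biased genes have a median of -0.35.

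Markers of other liver cells were set beside the members. Of 8 Kupffer cell markers, 7 were higher and 1 lower, with a median of 0.30 that was 0.62 on slide 1 and 0.02 on slide 2. Their mean log2 ratio ran from -0.53 to 0.63 in WT and from -0.11 to 0.45 in miR-223KO. Hepatocyte markers were lower for 9 of 11 genes, with a median of -0.17. Endothelial markers were higher for 5 of 6 (median 0.11), stellate cell markers for 4 of 6 (0.08), neutrophil markers for 2 of 4 (0.08), T and NK cell markers for 2 of 5 (-0.06), B cell markers for 1 of 4 (-0.17) and cholangiocyte markers for 1 of 5 (-0.20). The part of these in the differences of the enzymes was not tested.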

How the data were processed

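Liver RNA (Cy5) of 4 WT and 4 miR-223KO samples was read against a common RNA pool (Cy3) in 1 dye orientation. Per the file headers, images were read by Agilent Feature Extraction 12.0.3.1 (protocol GE2_1200_Jun14), and the deposited signals are intensity values. Their LogRatio column, per the file headers, is on a log10 scale (Cy5 over Cy3). The deposited table (40646 probes) gives the authors' log2 ratios, and its fold changes match the difference of group means to within 5.2e-07.

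Median signals were corrected with normexp (offset 50) in limma 3.58.1 under R 4.3.3. Loess followed within each array, fitted without control and flagged spots (weight 0). Flagged spots were then kept, and repeated spots averaged. A probe was tested when its Cy5 cleared background on 4 or more of the 8 arrays. The two-sided fit (lmFit, eBayes) was adjusted by Benjamini-Hochberg over 25693 probes at a threshold of 0.05 and was tested on simulated data. The brightest probe stood for a gene, for members the brightest in the deposited table. Cy5 and Cy3 differences were rebuilt after Aquantile normalisation. Probes were named by RefSeq accession (28454) or by the table's symbol (6910), and 5810 were unnamed. Promoters were aligned with Biopython 1.88.

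Members and lists were chosen with earlier results of these data known. All members were named, and up to 4 genes of smallest unadjusted p in each list other than the cell markers. Slco1a1, the sex-chromosome genes and the 5 genes most like Cyp2b10 and Cyp3a11 were also named. Rxra, Hnf4a and Gsta2 were named outside this rule. Alternatives changed background correction, normalisation, filters, flagged spots, blocks, channel and samples. The number of arrays limits the precision.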

Additional observations from a re-analysis of the deposited data

Results flagged for a closer look

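Of the 30 groups of 4 arrays examined (2 groups for each of the 15 probes), 1 held an array far from its others, which chance gives for about 1 in 20 groups. In miR-223KO, the Nr1i3 (CAR) probe had a log2 ratio of 0.37 in replicate 4, while the other 3 arrays lay between -0.18 and -0.10. That spot also had an outlier flag. Its gap to the nearest array was 0.853 of the group's whole range. Without this array the difference of Nr1i3 was 0.07.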

How the results depend on the processing

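Of the 11 member probes, 11 had a difference above 0, as they did under each other setting except 10 with flagged spots left out or within slide 1, 8 within slide 2, and 10 to 11 when 1 array was left out. The median over the 8 genes of the deposited table was 0.40, with 0.63 within slide 1, 0.21 within slide 2 and 0.23 to 0.51 without 1 array. No member probe passed the adjusted threshold under any setting, and the smallest adjusted p was 0.268 in limma, for Cyp2b13 without WT replicate 3. Receptor and enzyme pairs past the threshold stayed at 0 under each setting run, of which the one with slide and group means removed was added after seeing the data and could not have passed any pair. Over all probes, the count past the threshold was 1, and 5 with a normexp offset of 16, 2 without background subtraction, 2 with flagged spots left out, 4 when a probe had to clear background on all 8 arrays, and 4 with slide as a block. It was 0 within slide 2 (1966 at an unadjusted p under 0.05 in limma) and 0 with Cy5 alone (1224), and 1 to 5 without 1 array: 5 without WT replicate 3, 2 without WT replicate 4 and 2 without miR-223KO replicate 2. The cause was not tested.

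The replicate numbers did not pair the samples, since deviations of same-numbered samples correlated at -0.01, 0.06, 0.01 and -0.02 and 1 of 8 samples correlated best with its own number. With the replicate block, 4 probes passed and no member probe did.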

Other observations

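Genes of the liver's zones were measured beside the enzymes, since CAR and PXR targets are strongest around the central vein. Of 9 pericentral genes tested, 2 were higher and 7 lower in miR-223KO, with a median of -0.12. In limma, 0 passed after adjustment and 1 was lower at an unadjusted p under 0.05, against 2.22% of all probes. The glutamate transporter gene Slc1a2 stood at -0.51 (SE 0.22), and its other 3 probes stood at -0.25, -0.37 and -0.28. Oat, an ornithine aminotransferase, stood at -0.71 (SE 0.42), and Rhbg at -0.18 (SE 0.22). Cyp1a2, a P450 induced by the aryl hydrocarbon receptor, stood at 0.48 (SE 0.25) at its brighter probe and at -0.10 at the other. Of 9 periportal genes, 5 were higher and 4 lower, with a median of 0.02. Aldh1b1, a mitochondrial aldehyde dehydrogenase, stood at 0.34 (SE 0.21), and the urea cycle enzyme Cps1 at -0.19 (SE 0.29). Hal stood at 0.15 (SE 0.26) and Cyp2f2 at -0.14 (SE 0.25).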
